A study of Mus musculus with 8 samples.

Results

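The E2F and retinoblastoma genes were followed here through their open chromatin in mouse hepatocytes. The members were 10 genes fixed by name: E2f1, E2f2, E2f3, E2f4, E2f5, E2f7 and E2f8, which encode E2F transcription factors, and Rb1, Rbl1 and Rbl2, which encode the pocket proteins. They are 10 of 21938 protein-coding genes in the annotation used. The rule names the genes and uses no measured value, though it was set with earlier results of these data known.

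E2F proteins bind the promoters of genes for DNA replication and cell cycle entry. Pocket proteins bind E2Fs and hold those promoters silent in resting cells, and cyclin-dependent kinases release the complex when a cell prepares to divide. E2f1, E2f2 and E2f3 encode mainly activators, E2f4 and E2f5 encode factors that act mainly with pocket proteins as repressors, and E2f7 and E2f8 encode atypical repressors that bind DNA without a dimerisation partner. In the liver, E2f7 and E2f8 are known as drivers of hepatocyte polyploidy, the gain of whole chromosome sets by incomplete division.

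Chromatin accessibility was profiled by bulk ATAC-Seq, an assay of the DNA that Tn5 transposase can reach, in hepatocytes isolated by collagenase perfusion from C57BL/6 mice aged 10 to 12 weeks, which per the study's methods were males of the substrain C57BL/6J. The 0 h group came from healthy liver that had not been operated on. The other groups were taken 48, 72 and 96 h after partial hepatectomy (PHx), an operation that removes liver tissue and that the remainder answers by regrowing. Each of the 4 time points had 2 libraries, all mice were on a normal diet, and no group carried an engineered allele. The study describes its replicates at 0 and 48 h as separate hepatocyte preparations from separate mice. Fewer libraries of these times were analysed here than it describes, and the labels do not tie a library to an animal. The tests measure the spread between these libraries, mostly as pooled over features of similar mean rank. That pooled spread weighed 12.4 degrees of freedom for promoters and 10276 for regions, beside 4 from a feature's own libraries. A standard error (SE) given below is therefore not that feature's own replicate spread. The list of 72 h replicate 2 is named by another scheme than the other 7, and a batch behind that was not tested.

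The deposited data were 8 lists of peaks, which reduced to between 105206 (0 h replicate 2) and 154577 (72 h replicate 2) distinct intervals. Within a list, intervals were ranked by the authors' −log10 p, with rank 1 the strongest. Since the lists give no read counts, the depth behind an interval is unknown and no counting interval is given. Among the marker promoters examined, those of the hepatocyte genes Apoa1, Cps1 and Hnf4a were listed in all 8 libraries, Ttr in 7, Tat in 6 and Alb in 3. Of these 6 hepatocyte promoters, the 0 h lists held 6 and 6, the 48 h lists 3 and 4 (Alb and Tat in neither), the 72 h lists 5 and 5, and the 96 h lists 6 and 5. The 4 lymphocyte markers were in no list, and of 5 Kupffer cell and macrophage markers 3 were in no list and 0 in all. Of 5 stellate and fibroblast markers, Lrat, Col1a1 and Reln were in all 8 lists, Des in 5 and Dcn in 1. Of 4 cholangiocyte markers, Epcam and Sox9 were in all 8, Krt7 in 5 and Krt19 in 0. Of 5 endothelial markers, Kdr was in all 8, Cdh5 in 6, Pecam1 in 3, Clec4g in 2 and Stab2 in 0. The part of the drop in hepatocyte markers at 48 h and of other liver cells in the members' values was not tested. In bulk libraries, an interval that is open in fewer cells and one that is less open in each cell cannot be told apart.

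Promoter sequences from RefSeq (GRCm38.p6) are shown for the genes whose window held a searched E2F site and for E2f8, since E2F genes are themselves known targets of E2F proteins. The windows run from 250 bases before the start site through the 50 bases that begin at it. They were matched for 7 of the 10 members, in 9 windows, and E2f4, E2f5 and Rb1 had no entry. Capitals mark matches to the E2F site, searched as TTTCCCGC, TTTCGCGC, TTTGCCGC or TTTGGCGC, and to the cell cycle homology region TTTGAA, both on either strand.

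E2f7 promoter, chr10:110745189-110745488, plus strand: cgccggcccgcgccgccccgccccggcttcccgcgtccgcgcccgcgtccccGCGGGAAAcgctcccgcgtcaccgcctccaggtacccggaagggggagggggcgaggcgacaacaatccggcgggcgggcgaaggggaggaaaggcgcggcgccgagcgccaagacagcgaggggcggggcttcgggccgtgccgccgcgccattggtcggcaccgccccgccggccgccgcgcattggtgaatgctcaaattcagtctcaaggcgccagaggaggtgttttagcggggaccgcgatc
E2f8 promoter, chr7:48881547-48881846, minus strand: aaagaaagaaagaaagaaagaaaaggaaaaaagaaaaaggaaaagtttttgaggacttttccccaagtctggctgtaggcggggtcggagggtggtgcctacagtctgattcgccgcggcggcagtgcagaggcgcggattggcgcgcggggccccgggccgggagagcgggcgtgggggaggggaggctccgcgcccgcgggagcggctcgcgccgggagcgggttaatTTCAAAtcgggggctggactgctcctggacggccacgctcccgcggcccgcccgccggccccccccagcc
E2f3 promoter, chr13:29986014-29986313, minus strand: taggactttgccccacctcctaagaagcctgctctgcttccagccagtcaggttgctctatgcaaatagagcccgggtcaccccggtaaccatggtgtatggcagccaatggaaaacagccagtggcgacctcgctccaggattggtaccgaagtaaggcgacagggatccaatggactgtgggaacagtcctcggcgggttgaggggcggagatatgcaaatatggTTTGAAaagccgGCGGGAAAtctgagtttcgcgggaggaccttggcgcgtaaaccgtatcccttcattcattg
Rbl1 promoter, chr2:157204485-157204784, minus strand: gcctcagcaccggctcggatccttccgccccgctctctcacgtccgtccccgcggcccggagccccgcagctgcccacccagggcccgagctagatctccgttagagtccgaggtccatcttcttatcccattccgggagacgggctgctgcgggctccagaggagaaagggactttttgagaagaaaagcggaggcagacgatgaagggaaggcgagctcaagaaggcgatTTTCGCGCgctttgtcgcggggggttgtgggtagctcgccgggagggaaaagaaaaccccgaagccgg
E2f2 promoter, chr4:136172024-136172323, plus strand: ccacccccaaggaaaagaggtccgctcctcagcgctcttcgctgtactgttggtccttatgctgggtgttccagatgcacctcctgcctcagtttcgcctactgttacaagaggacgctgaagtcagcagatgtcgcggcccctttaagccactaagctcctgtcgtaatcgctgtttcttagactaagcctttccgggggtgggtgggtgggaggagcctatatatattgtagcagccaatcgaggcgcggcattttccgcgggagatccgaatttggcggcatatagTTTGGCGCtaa

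An E2F site stood in 4 of the 9 windows, those of E2f7, Rbl1 and E2f2 and the outer of 2 E2f3 windows, and in 2.26% of all 32851 windows. Counting from the start site as base 1, with the bases before it negative, the match TTTCGCGC began at −18 in Rbl1, GCGGGAAA at −11 in E2f3 and at −198 in E2f7, and TTTGGCGC at 40 in E2f2. The E2f1, E2f8 and Rbl2 windows and the inner E2f3 window did not hold these letters. The E2f1 window starts from a RefSeq site 466 bp inside the annotated gene, and the summit of its promoter interval lay inside the window in 0 of 8 lists, so it does not show the most open E2f1 sequence. Of the printed windows, the summit lay inside in 2 of 8 lists at E2f8, 3 of 8 at Rbl1, 6 of 8 at E2f7 and at the outer E2f3 window, and 2 of 8 at E2f2, taking the gene's strongest promoter interval in each list. TTTGAA was found in 4 of the 9 windows, at E2f8, Rbl2, the outer E2f3 window and the inner E2f2 window, and in 17.9% of all windows. In E2f8 it began at −20. The CCAAT box, searched as CCAAT, was found in 5 member windows against 37.4% of all windows, and the GC box GGGCGG in 8 of 9 against 35.7%. Some of these matches lie within a few bases of each other, as in E2f3, where TTTGAA at −23 precedes the E2F site. The GC content was 77.3% in E2f1, 75.3% in E2f7 and 66.7% in E2f8, and 50.7% in Rbl2, beside a median of 52.7% over all windows.

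The first question was how open each promoter was, taking for each gene the strongest interval within 1 kb of an annotated start site. Every member had such an interval in all 8 lists. Among the 13220 protein-coding genes for which that holds, Rb1 had the best median rank of the family, 1420, ahead of 91.7% of those promoters. It was followed by E2f5 (median rank 1575, ahead of 90.6%), E2f4 (2338, ahead of 86.5%), E2f1 (3815.5, ahead of 79.3%), E2f3 (5440.5, ahead of 72.0%) and Rbl2 (6580.5, ahead of 67.5%). E2f7 (9623, ahead of 57.0%) and E2f8 (13143, ahead of 46.9%) lay near the middle, where the median promoter stood at 11955. Rbl1 (20564, ahead of 30.8%) and E2f2 (61126.5, ahead of 2.83%) lay below it.

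Neighbours in that order were mostly not separated. Rb1 lay ahead of E2f5 in 4 of 8 libraries, and Rbl2 ahead of E2f7 in 4 of 8. E2f5 was ahead of E2f4 in 5, E2f1 ahead of E2f3, E2f3 ahead of Rbl2 and E2f8 ahead of Rbl1 in 6 each, and E2f4 ahead of E2f1 in 7. The exceptions were E2f7, ahead of E2f8 in 8 of 8 libraries by 0.66 ± 0.47 on the −log2 rank scale (SD, n = 8 libraries), and Rbl1, ahead of E2f2 in 8 of 8 by 1.54 ± 0.65. On this scale a difference of 1 is a factor of 2 in rank. Fold enrichment over local background, as the authors' peak caller gives it, ordered the genes differently. Its medians were 18.6 at E2f4, 15.4 at Rb1, 14.7 at E2f5, 12.5 at E2f7, 12.4 at E2f1 and at Rbl2, 9.03 at Rbl1, 8.20 at E2f3, 5.78 at E2f8 and 4.12 at E2f2. The strongest intervals were widest at Rbl1 (median 1273 bp) and Rb1 (1261 bp) and narrowest at E2f2 (503.5 bp).

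**Figure D1:**
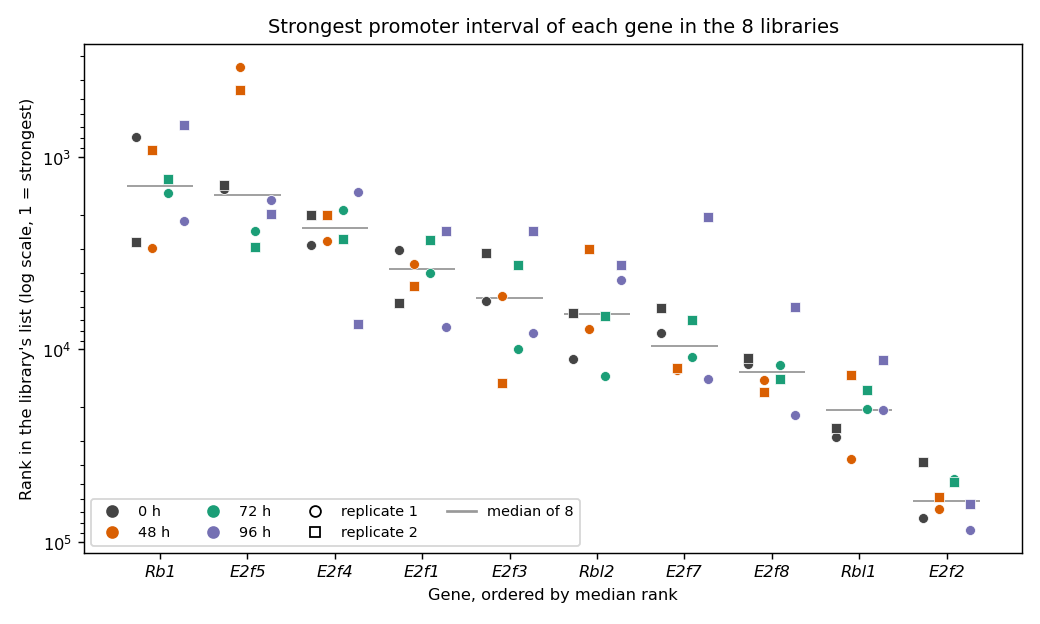
Rank of the strongest promoter interval (vertical log axis, rank 1 strongest, at the top) of the 10 genes in each library, coloured by time after PHx, with circles for replicate 1, squares for replicate 2 and a grey line at the median of the 8 libraries. E2f5 at 48 h stands apart from its other libraries at ranks 342 and 452, and E2f7 at 96 h spans ranks 2044 to 14274.

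The next question was whether promoters of the family changed rank after PHx. In limma fits over all 23249 gene promoters with an interval in at least 2 lists, 0 of the 10 members passed an adjusted p of 0.05 (Benjamini-Hochberg over all promoters) at 48, 72 or 96 h or for the mean of the PHx libraries. All promoters gave few calls as well: 7 at 48 h (0.0301%), 4 at 72 h (0.0172%), 11 at 96 h (0.0473%) and 4 for PHx as a whole (0.0172%). At an unadjusted p under 0.05 the members gave 1 call at 48 h, that of E2f5, and 0 in the other 3 contrasts, beside 10.2%, 8.4%, 5.18% and 8.84% of all promoters, so 1 of 10 is the background share. The 3 times were compared with the same 0 h libraries. Members differed from 0 h by between −1.08 (E2f3) and 1.87 (E2f5) at 48 h, between −0.89 and 0.57 at 72 h, and between −0.48 and 1.10 at 96 h. The median of the members was −0.08, −0.05 and −0.02 at the 3 times, beside −0.15, −0.18 and −0.10 for all promoters. The median of all promoters depends on how list length is treated. When ranks were divided by list length, the medians were 0.08, 0.30 and 0.21 for the members and 0.00, 0.17 and 0.13 for all promoters.

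**Figure D2:**
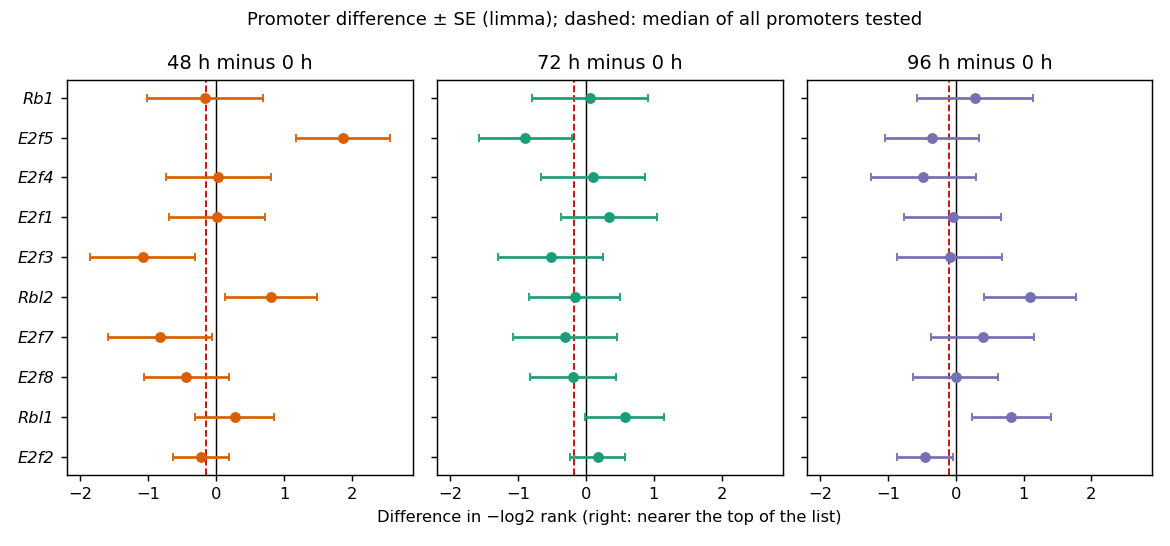
Difference in −log2 rank from 0 h (horizontal axis, points, with bars of 1 SE from limma, 2 libraries per time) for the promoters of the 10 genes at 48, 72 and 96 h, with a dashed line at the median of all promoters tested. Most bars cross 0, and the E2f5 point at 48 h (1.87) lies farthest from it.

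Among the genes of activating E2Fs, the E2f1 promoter ranked 3044 and 5716 in the 0 h libraries, 3614 and 4708 in those of 48 h, 4017 and 2693 in those of 72 h and 7638 and 2432 in those of 96 h (replicates 1 and 2). All 4 time points overlapped. Its 48 h difference was 0.02 ± 0.71 (SE; limma adjusted p = 0.99).

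E2f3 ranked 5604 and 3142 in the 0 h libraries, 5277 and 14907 in those of 48 h, 9925 and 3650 in those of 72 h and 8204 and 2422 in those of 96 h. The largest fall among members at 48 h, −1.08 ± 0.77 (limma adjusted p = 0.67), rested on replicate 2, since 48 h replicate 1 lay between the 0 h libraries. It was −0.33 with 48 h replicate 2 left out and −1.83 with 48 h replicate 1 left out. E2f3 has 2 annotated start sites with separate intervals, and the inner one, whose region chr13:29983995-29985074 (mm10) lies within the gene, was weaker, with ranks from 19475 to 41015.

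E2f2 ranked 75528 and 38671 in the 0 h libraries, 67837 and 58729 in those of 48 h, 47332 and 48616 in those of 72 h and 86344 and 63524 in those of 96 h. No time point stood clear of 0 h, and the 48 h difference was −0.22 ± 0.41 (limma adjusted p = 0.88). The second RefSeq window of E2f2, inside the gene, was covered in 7 lists at ranks from 32098 to 83345.

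Of the genes for repressive partners of the pocket proteins, E2f4 ranked 2870 and 2013 in the 0 h libraries, 2750 and 2004 in those of 48 h, 1886 and 2663 in those of 72 h and 1528 and 7350 in those of 96 h. Apart from 96 h replicate 2, the libraries fell within a narrow band, and the 48 h difference was 0.03 ± 0.77 (limma adjusted p = 0.99).

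E2f5 ranked 1472 and 1396 in the 0 h libraries, 342 and 452 in those of 48 h, 2423 and 2924 in those of 72 h and 1678 and 1977 in those of 96 h. Replicates agreed closely, both 48 h libraries stood above the other 6, and both 72 h and both 96 h libraries stood below both 0 h libraries. The 48 h rise was one of rank: fold enrichment at E2f5 was 14.6 and 16.2 in the 0 h libraries and 16.2 and 14.9 in those of 48 h, which overlapped, and the −log10 p was 153 and 106 against 95.1 and 98.6. In the fit to normalised log2 fold enrichment the difference from 0 h was 0.42 at 48 h, −0.071 at 72 h and 0.048 at 96 h, so the direction at 96 h turned. The difference in −log2 rank from 0 h was 1.87 ± 0.69 at 48 h (SE; limma adjusted p = 0.40), −0.89 ± 0.69 at 72 h (adjusted p = 0.70) and −0.35 ± 0.69 at 96 h (adjusted p = 0.96), so none passed the threshold. Over all promoters, 4.55% had both 48 h libraries above the other 6, and 1.49% had both 48 h libraries above and both 72 h libraries below both 0 h libraries. The 48 h minus 72 h difference, a contrast added after these ranks were seen, was 2.76 ± 0.69 (limma adjusted p = 0.44). It did not pass either, in a contrast where 0.0387% of promoters did.

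For the atypical factors, E2f7 ranked 8256 and 6122 in the 0 h libraries, 12791 and 12427 in those of 48 h, 10990 and 7045 in those of 72 h and 14274 and 2044 in those of 96 h. Both 48 h libraries lay below both 0 h libraries, by −0.83 ± 0.76 (SE; limma adjusted p = 0.75). At 96 h the replicates lay on either side of all other libraries, and the difference was 0.40 ± 0.76 (adjusted p = 0.96).

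E2f8 ranked 11885 and 11082 in the 0 h libraries, 14507 and 16673 in those of 48 h, 12041 and 14245 in those of 72 h and 21935 and 5997 in those of 96 h. Both libraries at 48 h and at 72 h lay below both 0 h libraries, with differences of −0.44 ± 0.63 (SE; limma adjusted p = 0.86) and −0.19 ± 0.63 (adjusted p = 0.94). The direction depended on the measure: by normalised log2 fold enrichment the differences were 0.14 and 0.11, and by percentile the 72 h difference was 0.16. Before normalisation, fold enrichment at E2f8 was 5.26 and 6.35 at 0 h and 5.28 and 5.04 at 48 h, which overlapped. At 72 h it was 6.47 and 5.86. The E2f8 interval also covered a start site of Gm2788, a processed transcript, so the 2 genes cannot be told apart there. At 96 h the E2f8 difference was 0.00 ± 0.63, since replicate 2 was ahead of and replicate 1 behind all other libraries.

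Over the 8 libraries the E2f7 and E2f8 promoters had a Pearson correlation of 0.915 (n = 8 libraries, a description, since all points share library effects). The median correlation of E2f7 with the other promoters was 0.108. Without the 96 h libraries the E2f7 and E2f8 correlation was 0.616 (n = 6 libraries). For both genes the highest and the lowest of the 8 ranks were those of the 96 h libraries. The promoters most like that of E2f7, among 13219 others, were Tspan12 (0.977), Cdkn1b (0.976), the gene of a cyclin-dependent kinase inhibitor, and Sass6 (0.971), a centriole assembly gene. For E2f8 they were Ublcp1 (0.980), Dact2 (0.980) and Cfap36 (0.977).

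Of the pocket protein genes, Rb1 ranked 785 and 2770 in the 0 h libraries, 2962 and 926 in those of 48 h, 1541 and 1299 in those of 72 h and 2157 and 684 in those of 96 h. The replicates at 0, 48 and 96 h differed by over 3 times, more than any 2 time points did, and the 48 h difference was −0.17 ± 0.86 (SE; limma adjusted p = 0.95).

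Rbl1 ranked 28402 and 25719 in the 0 h libraries, 36976 and 13505 in those of 48 h, 20422 and 16246 in those of 72 h and 20706 and 11346 in those of 96 h. Both libraries at 72 h and at 96 h lay above both 0 h libraries, by 0.57 ± 0.58 (SE; limma adjusted p = 0.77) and 0.82 ± 0.58 (adjusted p = 0.95), while the 48 h libraries lay on either side of 0 h with a difference of 0.27 ± 0.58 (adjusted p = 0.89). The 96 h difference was 1.25 without 96 h replicate 1 and 0.38 without replicate 2.

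Rbl2 ranked 11208 and 6487 in the 0 h libraries, 7843 and 3008 in those of 48 h, 13715 and 6674 in those of 72 h and 4358 and 3651 in those of 96 h. Both 96 h libraries lay above both 0 h libraries, by 1.10 ± 0.67 (SE; limma adjusted p = 0.94). The 48 h libraries overlapped those of 0 h, with a difference of 0.81 ± 0.67 (adjusted p = 0.72), which ranged from 0.12 (48 h replicate 2 left out) to 1.503 (48 h replicate 1 left out).

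Counted over the family, both libraries lay above both 0 h libraries for 1 of 10 promoters at 48 h (E2f5), 1 at 72 h (Rbl1) and 2 at 96 h (Rbl1 and Rbl2), beside 15.3%, 15.1% and 13.2% of all promoters. Both lay below for 2 at 48 h (E2f7 and E2f8), 2 at 72 h (E2f5 and E2f8) and 1 at 96 h (E2f5), beside 26.1%, 31.6% and 23.5%. These counts are close to the shares over all promoters. The 96 h replicates differed most for the members: their ranks differed by a median of 3.15 times, beside 1.58 at 0 h, 1.35 at 48 h and 1.33 at 72 h, and beside 1.48 times for all promoters at 96 h. Replicate 2 ranked ahead of replicate 1 at 96 h in 8 of 10 members and in 56.8% of all promoters. The 50000th interval of 96 h replicate 2 had a −log10 p of 8.29, beside 14.5 in replicate 1, and the 48 h lists had 8.05 and 8.62. The part of that gap in the members' ranks was not tested.

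Lists of genes that work with the family or are known as its targets were measured in the same fits. The partner list held E2f6, the dimerisation partners Tfdp1 and Tfdp2, Lin9, Lin37, Lin52, Lin54 and Rbbp4 of the DREAM and MuvB complexes, Mybl2 and Foxm1. None of its 10 promoters passed the threshold in limma in any of the 4 contrasts against 0 h, and 1, 1, 0 and 1 had an unadjusted p under 0.05 at 48 h, 72 h, 96 h and for PHx as a whole, beside 10.2%, 8.4%, 5.18% and 8.84% of all promoters. Its median was −0.76 at 48 h, −0.73 at 72 h and −0.29 at 96 h, beside −0.15, −0.18 and −0.10 for all promoters, and −0.61, −0.38 and −0.05 against 0.00, 0.17 and 0.13 when ranks were divided by list length. At 48 h both libraries lay below both 0 h libraries in 6 of 10 and above in 0, beside 26.1% and 15.3% of all promoters. The lowest values at 48 h were those of Lin37 and Lin52. Lin37 ranked 13271 and 11092 in the 0 h libraries and 46976 and 24868 in those of 48 h, a difference of −1.49 ± 0.56 (SE; limma adjusted p = 0.40). Lin52 ranked 1767 and 1429 in the 0 h libraries and 3892 and 4232 in those of 48 h, a difference of −1.35 ± 0.68 (adjusted p = 0.52). The highest were Lin9 (0.19 ± 0.63) and E2f6 (0.13 ± 0.52).

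The target list held 23 genes of replication and cell cycle entry, among them Mcm2 to Mcm7, Pcna, Rrm2 and Ccne1. None of its 23 promoters passed the threshold in limma in the 4 contrasts against 0 h, and 4, 2, 0 and 2 had an unadjusted p under 0.05 at 48 h, 72 h, 96 h and for PHx as a whole, against those same shares of all promoters. Its median was −0.48 at 48 h, −0.58 at 72 h and −0.41 at 96 h, and −0.33, −0.23 and −0.17 when ranks were divided by list length. At 48 h both libraries lay below both 0 h libraries in 12 of 23 and above in 0, beside 26.1% and 15.3% of all promoters. The 48 h lists held the fewest hepatocyte marker promoters (3 and 4 of 6) and had a −log10 p of 8.05 and 8.62 at their 50000th interval, beside 15.2 and 9.96 at 0 h. At 72 h, where the lists held 5 and 5 of those markers and the values were 14.8 and 14.0, both libraries lay below both 0 h libraries in 12 of 23 targets and 5 of 10 partners, beside 31.6% of all promoters. The part of either measure in both lists' values was not tested. Pcna, the gene of the replication sliding clamp, had the lowest value: it ranked 4022 and 6092 in the 0 h libraries and 19850 and 26745 in those of 48 h, a difference of −2.22 ± 0.67 (SE; limma adjusted p = 0.34). Mcm3, of the replicative helicase, ranked 3253 and 7652 in the 0 h libraries and 9781 and 29689 in those of 48 h, a difference of −1.77 ± 0.81 (adjusted p = 0.48). The highest values were those of Tk1 (0.39 ± 0.33), whose promoter was in 5 lists and was given the rank after the last in the other 3, and Rrm2 (0.12 ± 0.60).

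The remaining question concerned the chromatin around the genes. Intervals of all lists were merged where they shared at least 1 bp, and 142 of the 315767 regions overlapped the body of a member or 10 kb on either side. Of these, 17 lay within 1 kb of the member's start sites and 125 were distal. Distal regions were unevenly stable: 29 were in all 8 lists and 56 in 1 list only. Of the 29, 13 overlapped the promoter of another gene.

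Distal intervals per 100 kb had medians over the libraries of 20.6 at E2f2, 19.8 at E2f4, 17.1 at E2f8, 13.1 at E2f1, 11.6 at E2f3, 9.25 at Rb1 and 7.45 at Rbl2. E2f7 (3.23), E2f5 (2.10) and Rbl1 (0.64) had fewer. Over 21938 protein-coding genes the median was between 4.96 and 8.49 in the 8 libraries. E2f7 held 1 to 4 distal intervals per library in 61.9 kb and E2f8 held 3 to 8 in 35.2 kb. These counts move with the length of the lists: among the 50000 strongest intervals E2f7 held 0 to 1 and E2f8 0 to 2.

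**Figure D3:**
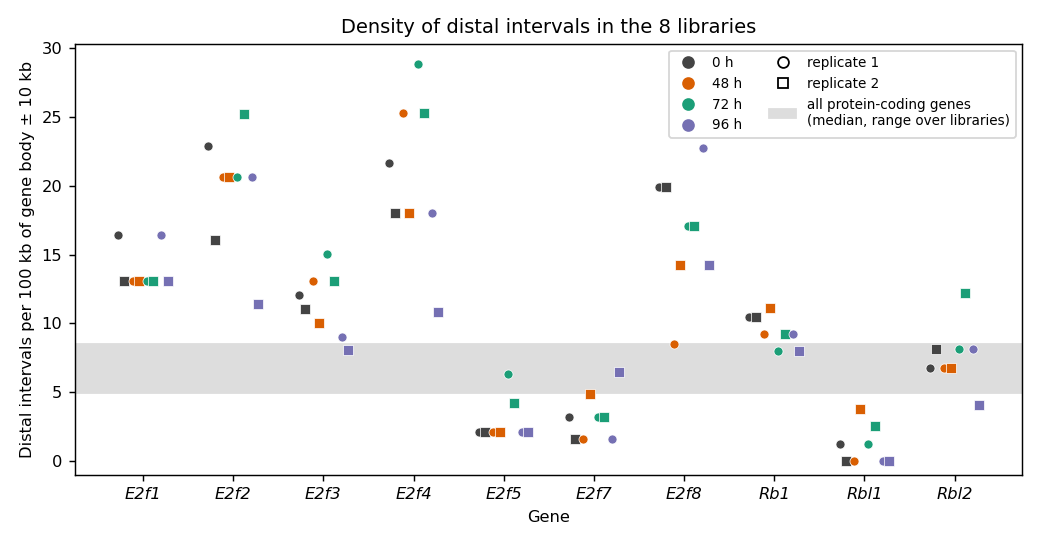
Distal intervals per 100 kb of gene body with 10 kb on either side (vertical axis) for the 10 genes in each library, coloured by time after PHx, with a grey band over the range of the 8 library medians of all protein-coding genes. E2f5, E2f7 and Rbl1 lie mostly below the band, with medians of 2.10, 3.23 and 0.64, and E2f1, E2f2, E2f4 and E2f8 lie above it in every library.

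At 5 of the 10 members the strongest distal region was the promoter of a neighbouring gene. That of E2f8 lay at a start site of the processed transcript Gm2788. At Rbl2 the best was chr8:91133360-91134514 (median rank 1314.5), the promoter of Aktip. At E2f5 it was chr3:14610968-14611797 (1435.5), the promoter of 1810022K09Rik, and at E2f4 it was chr8:105305327-105306459 (6921), the promoter of Elmo3. At E2f1 it was chr2:154551936-154553078 (9561), the promoter of Actl10, and at E2f2 it was chr4:136205974-136206868 (14858.5), the promoter of Asap3. These 5 regions were counted as distal to the member and are start sites of other genes.

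E2f3 and Rb1 held strong regions of their own. An E2f3 intron held chr13:29944549-29945654, with its summit 39.3 kb inside the gene from the nearest start site. It ranked 6503 and 7146 in the 0 h libraries, 3218 and 13464 in those of 48 h, 10703 and 7744 in those of 72 h and 15041 and 10538 in those of 96 h, and lay ahead of the inner E2f3 start site in all libraries. An Rb1 intron held chr14:73253198-73253964, 72.2 kb from the start site, which ranked 21565 and 14146 in the 0 h libraries, 23056 and 28608 in those of 48 h, 39166 and 17828 in those of 72 h and 36463 and 45230 in those of 96 h. Both libraries at 48 h and at 96 h lay below both 0 h libraries, with a 48 h difference of −0.56 ± 0.56 (SE; limma adjusted p = 0.88), which was −0.86 with 0 h replicate 1 left out and −0.25 with 0 h replicate 2 left out. Rb1 held 11 of the 29 distal regions found in all lists. At Rbl1 the best distal region, chr2:157211452-157212020, upstream of the gene, was in 4 lists only.

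Downstream of E2f7 stood chr10:110794266-110794999, 49.1 kb from the nearest E2f7 start site and within 1700020G17Rik. It ranked 35977 and 39371 in the 0 h libraries, 44849 and 26278 in those of 48 h, 42159 and 31334 in those of 72 h and 57412 and 37444 in those of 96 h. It was the 1 distal region of E2f7 present in all lists, and its 48 h difference was 0.13 ± 0.55 (SE; limma adjusted p = 0.94).

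Of the 142 regions, 84 were in at least 2 lists and entered the limma fit over 149843 regions, 15 at promoters and 69 distal. None of the 84 passed an adjusted p of 0.05 at 48, 72 or 96 h or for PHx as a whole, where 0.0774%, 0.0194%, 0.000667% and 0.159% of all regions did. At an unadjusted p under 0.05 there were 5, 10, 8 and 8 of the 84, beside 8.12%, 9.38%, 6% and 8.81% of all regions. At 48 h both libraries lay below both 0 h libraries in 15 of the 69 distal regions and above in 5, beside 23.5% and 11.4% of all regions. At 72 h the counts were 28 below and 8 above, beside 32.4% and 13.9%, and at 96 h they were 33 below and 4 above, beside 32.6% and 10.6%. Neighbouring regions of a locus share a library's signal, and the gap between these counts and shares was not tested.

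E2f8 had the lowest adjusted p among the members' regions in each of the 4 contrasts against 0 h. Its distal intervals numbered 7 and 7 in the 0 h libraries, 3 and 5 in those of 48 h, 6 and 6 in those of 72 h and 8 and 5 in those of 96 h. The lower count at 48 h than at 0 h depended on the setting, and the 48 h lists were those with the lower −log10 p at the 50000th interval (8.05 and 8.62, beside 15.2 and 9.96), the part of which was not tested. With a q of at most 0.05 the 0 h lists held 5 and 5 and the 48 h lists 3 and 4, but within the gene body alone both times had 3 and 4, and of the 50000 strongest intervals the 0 h lists held 1 and 1 and the 48 h lists 1 and 2. Of its 7 distal regions in the fit, 4 had both 48 h libraries below both 0 h libraries, beside 23.5% of all regions, and E2f8 was singled out after its values were seen. An intronic region, 6.98 kb from the nearest start site, was in both 0 h lists and in neither 48 h list. The same held for a region downstream of E2f8, described below. The intronic region is printed here (chr7:48873952-48874235, GRCm38, plus strand, 284 bases):

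E2f8 intron region: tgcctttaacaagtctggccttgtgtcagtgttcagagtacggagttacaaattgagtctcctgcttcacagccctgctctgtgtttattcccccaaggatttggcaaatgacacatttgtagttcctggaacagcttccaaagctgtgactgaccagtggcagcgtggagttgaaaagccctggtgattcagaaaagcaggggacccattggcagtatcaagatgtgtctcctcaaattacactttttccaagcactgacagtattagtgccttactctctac

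It held none of the searched E2F, TTTGAA or GC box letters and 1 CCAAT match on the minus strand. This region ranked 61397 and 53741 at 0 h, 106732 in 72 h replicate 2 and 80952 in 96 h replicate 1, and was absent from the other 4 lists, where the rank after the last was used. The difference was −1.16 ± 0.40 at 48 h (SE; limma adjusted p = 0.31) and −1.02 ± 0.33 for PHx as a whole (adjusted p = 0.19). Downstream of E2f8, chr7:48859196-48859834 ranked 79261 and 52313 at 0 h and was absent from both 48 h lists, then ranked between 65131 and 83442 in the 4 later libraries. Its 48 h difference, with imputed ranks at 48 h, was −0.99 ± 0.48 (adjusted p = 0.58). The strongest distal region of E2f8, chr7:48877785-48878395 in an intron and at a Gm2788 start site, ranked 27116 and 29108 at 0 h and between 36122 and 81511 in all 6 PHx libraries, and its PHx difference was −0.81 ± 0.45 (adjusted p = 0.61). At 72 and 96 h the lowest adjusted p belonged to a further region downstream of E2f8, chr7:48857593-48857966, named after its values were seen. It ranked 68342 and 52566 in the 0 h libraries, was in 1 list at each later time, always replicate 2, at ranks 94275, 118107 and 102822, and was given the rank after the last in the other 3. Its differences were −0.82 ± 0.39 at 48 h (limma adjusted p = 0.57), −1.10 ± 0.39 at 72 h (adjusted p = 0.34) and −1.03 ± 0.39 at 96 h (adjusted p = 0.70). For all 4 regions the 48 h libraries ranked behind the 0 h libraries, and none passed the test in limma.

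**Figure D4:**
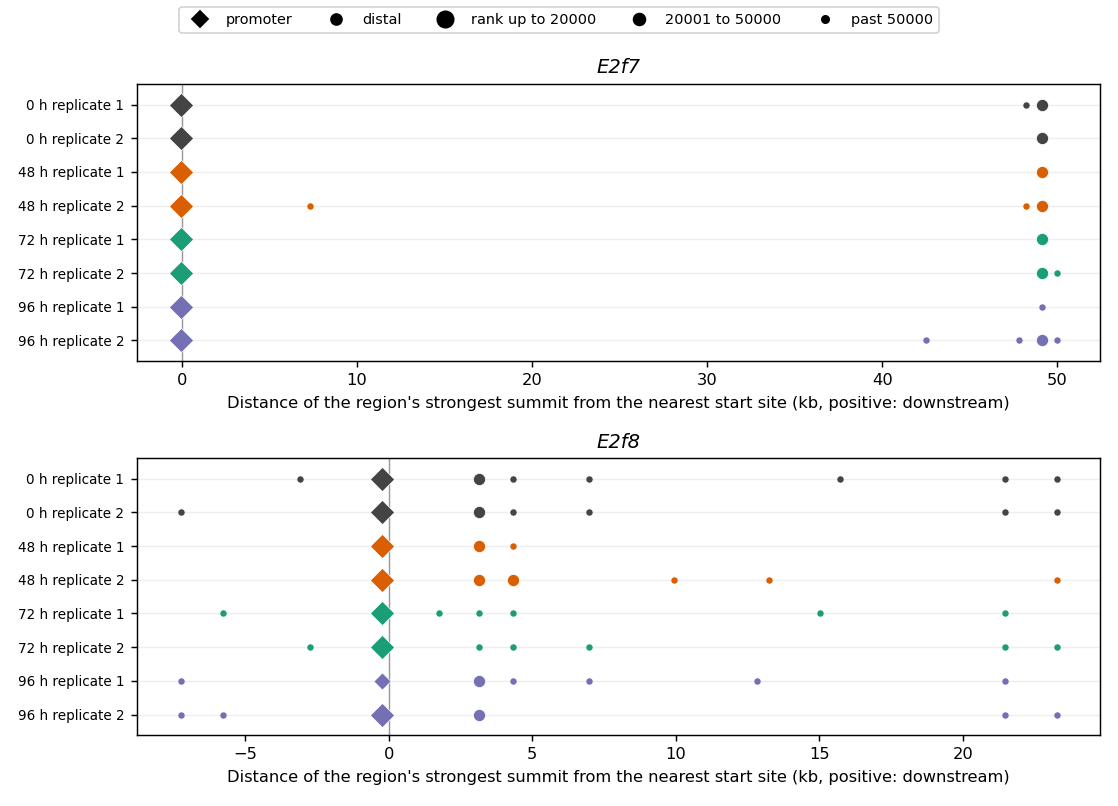
Regions around E2f7 (top) and E2f8 (bottom) that held an interval in each library (rows, coloured by time after PHx), placed by the distance of their strongest summit from the nearest start site (horizontal axis, kb), with diamonds for promoters, circles for distal regions and larger symbols for better ranks. E2f7 shows its promoter and 1 distal region in every library. Each symbol is a merged region, so a library can show fewer symbols than it holds intervals. Counted as intervals, E2f8 held 7 and 7 distal ones at 0 h and 3 and 5 at 48 h (3 and 4 at both times within the gene body).

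Elsewhere, the largest 48 h differences among distal regions whose libraries did not overlap were at the Aktip promoter near Rbl2, an Rbl2 intron and the end of Rb1. The Aktip promoter ranked 891 and 1040 in the 0 h libraries, 3449 and 2405 in those of 48 h, 675 and 1589 in those of 72 h and 2502 and 374 in those of 96 h, a 48 h difference of −1.58 ± 0.83 (SE; limma adjusted p = 0.63). The Rbl2 intron region chr8:91117675-91117878, also within Aktip, was absent from both 0 h lists and ranked 50535 and 51694 in the 48 h libraries, 48261 and 80534 in those of 72 h and 41413 in 96 h replicate 1, a difference of 1.18 ± 0.52 at 48 h with imputed 0 h ranks (adjusted p = 0.52). Downstream of Rb1, chr14:73179117-73180009 within Rcbtb2 and Gm17233 ranked 49036 and 28459 in the 0 h libraries and 73448 and 65659 in those of 48 h, a difference of −0.89 ± 0.54 (adjusted p = 0.72).

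The promoter of 1810022K09Rik, the neighbour of E2f5, ranked 926 and 133 in the 0 h libraries, 1983 and 182 in those of 48 h, 2757 and 1442 in those of 72 h and 1537 and 1429 in those of 96 h. Its 48 h libraries overlapped those of 0 h, with a difference of −0.78 ± 0.89 (SE; limma adjusted p = 0.89), while both 72 h and both 96 h libraries lay below both 0 h libraries, by −2.51 ± 0.89 (adjusted p = 0.34) and −2.08 ± 0.89 (adjusted p = 0.78). Leaving out 0 h replicate 1 gave −3.91 at 72 h and −3.48 at 96 h, and leaving out 0 h replicate 2 gave −1.11 and −0.68. The E2f5 promoter also lay below 0 h at 72 and 96 h, and at 48 h both its libraries lay above. The difference between the 2 promoters was not tested.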

How the data were processed

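Hepatocyte nuclei were profiled by bulk ATAC-Seq in 8 libraries, 2 at each of 4 time points, grouped by the sample labels. Per the study's methods, the authors trimmed reads, mapped them to mm10 using Bowtie2, removed duplicates and called peaks per library with MACS2. The names of the lists state a shift of tags for Tn5, a cutoff on p, a cap on peak number and blacklist filtering. The deposited lists give a fold enrichment (a linear ratio), a −log10 p and a −log10 q for each peak. The deposited score and summit offset are the authors' peak caller's own values, and the score was not used. The lowest −log10 p lay between 2.00031 and 2.00077 in the lists.

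Rows that shared an interval were collapsed to the highest −log10 p and ranked. Promoters were windows of 1 kb on either side of GENCODE M21 basic start sites, and regions were intervals merged at 1 bp or more. A feature entered if at least 2 lists held it, and a list without it got its length plus 1 as rank. Values of −log2 rank were fitted with limma 3.58.1 (R 4.3.3), moderated with a mean-variance trend, time point as the only term, and Benjamini-Hochberg adjustment at 0.05. The fit was tested on simulated data. The study's count-based time course could not be run, since the lists hold no read counts. Intervals were checked against the GRCm38 chromosome lengths, which 0 exceeded. Alternatives were percentile of list length, log2 fold enrichment with quantile normalisation, a q of at most 0.05, the 50000 strongest intervals, an interval in all 8 lists, windows of 500 bp, summits only, no trend, a replicate block and leaving out each library.

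Regions were named by rule: for each member the distal region with the best median rank, and the 5 distal regions with the largest 48 h difference among those in at least 4 lists whose 48 h and 0 h libraries did not overlap. Member regions past the threshold would have been named too. List genes were the 2 with the largest rise and the 2 with the largest fall at 48 h, and for E2f7 and E2f8 the 3 protein-coding promoters with the highest correlation. The E2f5 contrast of 48 h with 72 h was added after the ranks were seen. The members and lists were chosen with earlier results of these data known.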

Additional observations from a re-analysis of the deposited data

Results flagged for a closer look

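The E2f5 promoter was singled out because its libraries moved in opposite directions at different times. Both 48 h libraries lay above both 0 h libraries, by 1.87 on the −log2 rank scale, while both 72 h libraries lay below them, by −0.89. The difference between the 2 times, 2.76, was tested as 48 h minus 72 h in the limma fit and gave an adjusted p of 0.44, so it did not pass the correction. Without each library in turn it ranged from 2.56 to 2.96. By normalised log2 fold enrichment the difference from 0 h was 0.42 at 48 h, −0.071 at 72 h and, turning direction, 0.048 at 96 h. Both 96 h libraries also lay below both 0 h libraries, by −0.35 in rank (−0.46 to −0.23 without each library in turn). The difference between 48 h and 96 h (2.21) was not tested. Groups of 2 libraries were too small to look for single outlying libraries.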

How the results depend on the processing

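Of the members' promoters and regions 0 passed an adjusted p of 0.05 in limma under any alternative, with a lowest adjusted p of 0.269 for promoters and 0.113 for regions. Calls over all features depended on the settings. Promoter calls at 48, 72 and 96 h and for PHx (7, 4, 11 and 4) became 0 in each contrast for the 50000 strongest intervals, for fold enrichment and without the trend. Percentiles gave 0 at 48 h, 0 at 96 h and 2 for PHx. An interval in all 8 lists gave 14, 0, 1 and 0. A q of at most 0.05 gave 14 at 48 h, windows of 500 bp gave 4 at 48 h and 3 at 96 h, and summits gave 1 at 96 h. Region calls (116, 29, 1 and 238) became 0 for the 50000 strongest intervals and for percentiles, and with all 8 lists 7, 0, 0 and 0. The members' median at 72 h was 0.30 by percentile. The mean sum of distal intervals over the 10 loci (61.1) was 37.8 for gene bodies, 155 with flanks of 50 kb, 23.1 for the 50000 strongest and 54.4 for a q of at most 0.05. The cause of these changes was not tested.

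Some differences changed sign. By quantile-normalised log2 fold enrichment E2f4 gave −0.11, E2f8 0.14 at 48 h and 0.11 at 72 h, E2f5 0.048 and E2f7 −0.011 at 96 h. Fold enrichment without normalisation was not fitted, so the part of the normalisation in these signs was not tested. By percentile E2f8 gave 0.16 at 72 h.

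Leaving out each library in turn gave 1 to 28, 2 to 14, 1 to 18 and 1 to 10 promoter calls and 0 to 267, 1 to 236, 1 to 10 and 2 to 518 region calls. The members' median ranged from −0.33 to 0.071 at 48 h, from −0.28 to 0.17 at 72 h and from −0.195 to 0.196 for PHx. At 96 h it ranged from −0.61 to 0.86, being 0.86 without 96 h replicate 1 and −0.61 without replicate 2. Promoter differences that changed sign at 48 h ranged from −0.44 to 0.47 (E2f1), −0.71 to 0.26 (E2f2), −0.22 to 0.29 (E2f4), −1.08 to 0.74 (Rb1) and −0.45 to 1.001 (Rbl1), and at 96 h from −1.01 to 1.80 (E2f7) and −0.93 to 0.94 (E2f8). Without changing sign, E2f3 at 48 h ranged from −1.83 to −0.33, E2f8 at 72 h from −0.31 to −0.069, Rbl2 at 96 h from 0.70 to 1.49, and at 48 h the Rb1 intron region from −0.86 to −0.25 and the region downstream of Rb1 from −1.29 to −0.50. The best distal regions ranged from −0.59 to 0.90 (E2f1), −0.83 to 0.89 (E2f2), −0.98 to 1.08 (E2f3), −0.25 to 0.51 (E2f4), −2.50 to 0.95 (E2f5), −0.25 to 0.52 (E2f7) and −0.64 to 0.31 (Rbl1).

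The labels do not say that replicate numbers pair libraries, and deviations of same-numbered libraries correlated between −0.0860 and 0.106 over 6 pairs of time points. With the number as a replicate block, promoter calls at 48 h were 12, and the other 3 promoter contrasts gave 3, 11 and 5.

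Each time had 2 libraries, and the depth behind an interval is unknown. A missing interval is one that did not reach the calling threshold in that list.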
